A study of Mus musculus with 6 samples.

Results

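The insulin-like growth factor (IGF) axis was described here through 10 genes chosen by name from the 43548 genes of the deposited table. They are the ligands Igf1 and Igf2, the receptors Igf1r and Igf2r, and the binding proteins Igfbp2, Igfbp3, Igfbp4, Igfbp5, Igfbp6 and Igfbp7. Their level in Met-1 TripZ-200c cells, and their difference after the microRNA miR-200c was induced, were the questions asked of the table. Met-1 is a mouse mammary carcinoma line grown from a late-stage MMTV-PyMT tumour, with the strain given as FVB/nJ. Met-1 TripZ-200c cells are 1 sorted clone of it with a lentiviral TripZ vector, from which doxycycline (Dox) switches on the miR-200c precursor together with a red fluorescent protein. Both groups were these same cells, cultured for 48 h either with vehicle (water, −Dox) or with 1 µg/mL Dox (+Dox), in 3 libraries each. Cells with the empty vector were not analysed here, so Dox itself and miR-200c cannot be told apart. The cultures were plated in triplicate from that clone, and the p-values measure the spread between these samples.

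IGF1 and IGF2 are secreted peptides that bind the receptor tyrosine kinase IGF1R, which signals through the IRS and SHC adaptors to the PI3K and AKT kinases and to the RAS pathway. IGF2R, also called the cation-independent mannose 6-phosphate receptor, has no kinase. It takes IGF2 to the lysosome and carries newly made lysosomal enzymes. The binding proteins hold the ligands outside the cell, and proteases such as PAPP-A release them by cutting the binding proteins. In the mammary gland and its tumours, IGF signals are known for promoting growth and survival. In the mouse, Igf2 is expressed from the paternal copy and Igf2r mainly from the maternal copy, where the paternal copy is kept silent through the antisense transcript Airn.

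The induced microRNA pairs with messenger RNAs through its seed. The mature sequence is shown because the letters searched for in the members are its complement, and the capitals mark the seed (bases 2 to 8), which RefSeq also gives to miR-200b-3p and miR-429-3p:
miR-200c-3p: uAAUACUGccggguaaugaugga
It lies at chr6:124718324-124718346 on the minus strand of GRCm38.p6, according to RefSeq. The 7 bases that pair with the seed read CAGTATT, and they were searched for on the transcript strand of the longest annotated 3′ UTR (the untranslated end) of each gene. Igf2r had 1 match, which starts at base 571 of its 1304-base 3′ UTR. Igfbp6 also had 1, at base 184 of 209. The capitals below mark the match, with GRCm38 positions:
Igf2r, chr17:12683132-12683154, minus strand: acacttagtgagctgCAGTATTc
Igfbp6, chr15:102149471-102149493, plus strand: tgtgtactaataaaaCAGTATTg
The other 8 members had none in this window, which for Igf1r is 7267 bases long. Neither match was the longer CAGTATTA. Of 10806 tested protein-coding genes with a 3′ UTR, 16.9% held CAGTATT and 4.25% CAGTATTA. A match is a stretch of letters and was not measured as a site of binding. The known targets Zeb1 and Zeb2, which repress epithelial genes, held 5 matches each.

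Expression was given as FPKM, the fragments on a gene scaled to its length and to the mapped reads of the library, so levels of different genes can be set side by side per length. From the steps between the lowest values, 1 read on a 1-kb transcript was worth an estimated 0.0576 to 0.0932 FPKM, or about 10700000 to 17400000 reads per library. The libraries correlated at a Spearman rho of 0.982 to 0.993. Zeb1 fell from 41.0, 42.1 and 42.3 FPKM in the −Dox libraries to 19.8, 20.3 and 23.6 in the +Dox libraries (log2 fold change −0.98, adjusted p = 3.62e-04). Zeb2 fell by 1.81 on the log2 scale (adjusted p = 4.48e-05). Cdh1, the E-cadherin gene, was at 0.0419 to 0.0776 FPKM without Dox and 0.554 to 1.24 with it (adjusted p = 0.0125, which was 0.0503 without −Dox library 2 and 0.0505 without −Dox library 3). The miR-200c gene itself was listed at 0 in all libraries, so its induction could not be read from this table. All 37 mitochondrial genes were listed at 0 as well, and a 0 here may be a failed estimate. The summed FPKM of 5 epithelial markers was 91.6 to 97.0 without Dox and 369 to 405 with it, with Krt5 listed at 0 and most of the sum in Krt18. That of 5 fibroblast markers was 50.4 to 52.7 and 29.9 to 32.3, with Dpt and Lum listed at 0. The 4 leukocyte markers summed to 6.34 to 11.3 and 6.70 to 7.57, nearly all of it Cd68, with Cd3e and Adgre1 listed at 0. The 3 endothelial markers summed to 4.47 to 5.12 and 4.19 to 4.55, nearly all of it Cdh5. The part of these markers in the results on the IGF axis was not tested.

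Both IGF receptors and Igfbp4 had a mean of over 10 FPKM in Met-1 TripZ-200c cells, and Igfbp7 one of about 2 FPKM. Igf2 was listed at 0.111 to 1.31 FPKM, and Igf1 at 0 in 5 of 6 libraries. With Dox, Igf2r fell to 0.762 of its −Dox level, and it was the only 1 of the 10 members that passed the test. Igf1r was slightly higher with Dox in every library but did not pass. The test was limma on log2(FPKM + 0.1) over the 12879 genes whose mean reached 1 FPKM, with Benjamini-Hochberg adjustment and a threshold of 0.05. Fold changes are on that scale. It called 15.0% of the genes tested, 7.97% lower and 7.06% higher with Dox. Only 4 members (Igf2r, Igf1r, Igfbp4 and Igfbp7) reached the mean of 1 FPKM, so 1 of 4 was called. The other members are given from the same model without the filter, which called 7.84% of 20513 genes and none of the 5 members fitted there. Igfbp3, at 0 throughout, could not be fitted. The values of the groups did not overlap for 2 of the 4 members tested, beside 35.0% of all genes tested. The median log2 fold change was −0.08 over those 4 members and 0.00 over all genes tested.

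**Figure D1:**
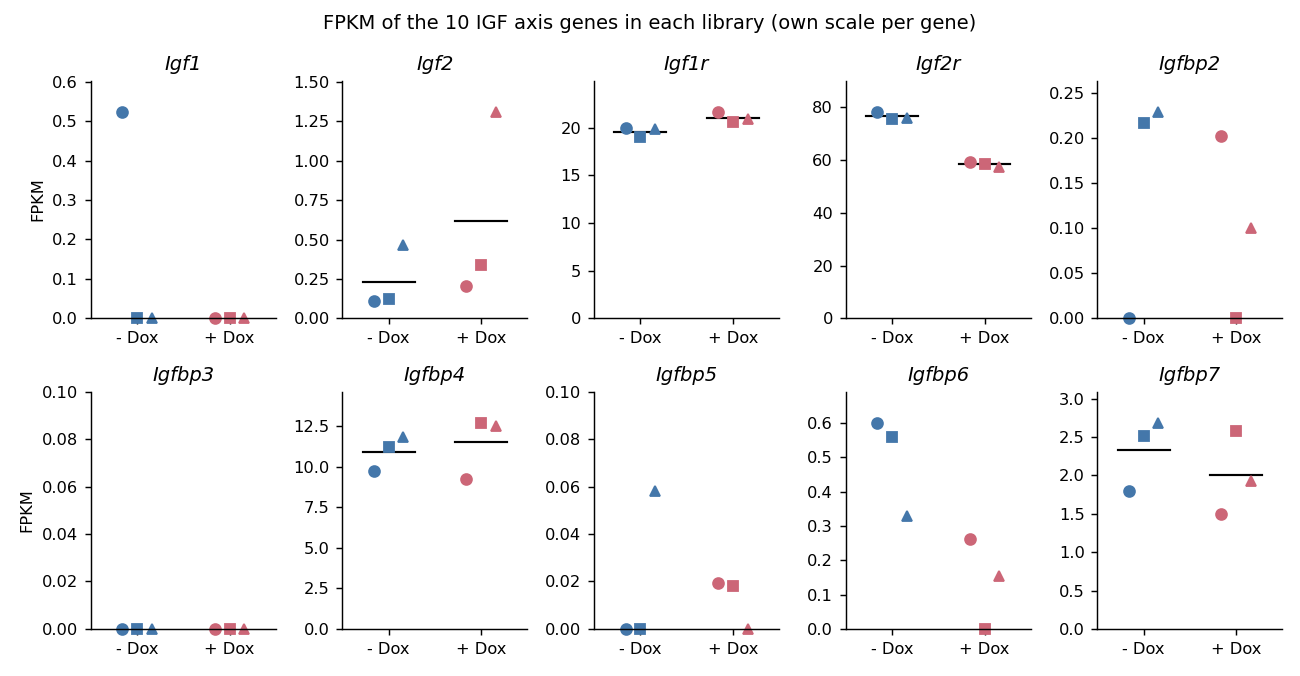
FPKM of each member (vertical axis, its own scale from 0 in every panel) in the 3 −Dox (blue) and 3 +Dox (red) libraries; circles, squares and triangles are libraries 1, 2 and 3, and a line marks the group mean where no library is listed at 0. The 3 +Dox values of Igf2r lie between 57.5 and 59.3, all below the −Dox values, and Igfbp3 is listed at 0 in every library.

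Igf2r (ENSMUSG00000023830, GRCm38 chr17:12682406-12769664, minus strand, 48 exons in the longest transcript) was the most highly expressed member. It stood at 78.3, 75.5 and 76.1 FPKM in −Dox libraries 1, 2 and 3, and at 59.3, 58.4 and 57.5 in +Dox libraries 1, 2 and 3. Every +Dox library lay below every −Dox library, and the gap between the groups was far wider than the spread within either. The mean fell from 76.6 ± 1.45 to 58.4 ± 0.883 FPKM (SD, n = 3 each). The log2 fold change was −0.39 (SE 0.0373, 95% interval −0.48 to −0.30, limma adjusted p = 8.70e-04), a change of −23.8%. In bulk RNA, fewer cells with the transcript and less of it per cell cannot be told apart. It passed in all 14 alternatives run (listed with the processing steps), with log2 fold changes of −0.40 to −0.38 and adjusted p from 7.05e-04 to 0.00780. Among the 20513 genes above 0 in any library, its mean was higher than that of 87.3%. These values rest on an estimated 6076 to 10314 reads per library if its longest transcript is counted, and on 168 to 284 if its shortest is. The CAGTATT match shown above lies in its last exon, in the 3′ UTR.

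Igf1r (ENSMUSG00000005533, chr7:67952827-68233668, plus strand) was the second most expressed member. It stood at 19.92, 18.97 and 19.86 FPKM in the −Dox libraries and at 21.6, 20.6 and 20.9 in the +Dox libraries. The groups did not overlap, but the lowest +Dox and the highest −Dox library lay close together. Means were 19.6 ± 0.527 and 21.0 ± 0.525 FPKM (SD, n = 3 each), a log2 fold change of 0.10 with a 95% interval of −0.03 to 0.23. It did not pass (limma adjusted p = 0.264, 0.204 to 0.471 over the alternatives). These data therefore leave room for a rise of up to 0.23 on the log2 scale as well as for none. The ratio of Igf1r to Igf2r FPKM, computed after their values were seen, was 0.254, 0.251 and 0.261 in the −Dox libraries and 0.365, 0.353 and 0.363 in the +Dox libraries. The ratio was higher in all 3 +Dox libraries. That was fixed beforehand, because the groups of both genes did not overlap and lay in opposite directions. The two-sided exact permutation p of 0.1, the smallest that 3 libraries against 3 allow, therefore adds nothing to the values of each gene.

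**Figure D2:**
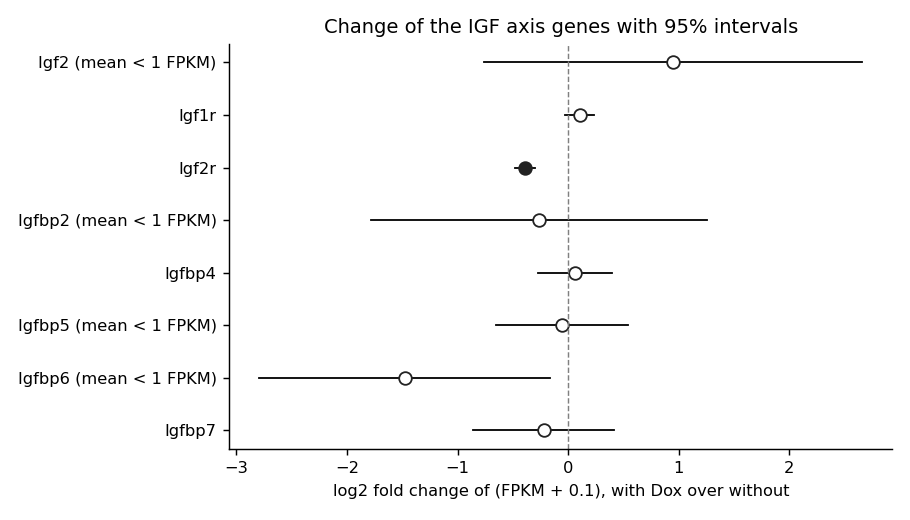
Log2 fold change of FPKM + 0.1, +Dox over −Dox, for 8 members (points) with 95% intervals (lines); the filled point passed the limma test, and members with a mean under 1 FPKM are marked. Only Igf2r, at −0.39, passed; Igf1 and Igfbp3 are left out because their +Dox libraries were all listed at 0.

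The binding proteins were led by Igfbp4 (ENSMUSG00000017493, chr11:99041244-99054392, plus strand), which is known for holding IGFs away from the receptor until PAPP-A cuts it. It stood at 9.72, 11.2 and 11.8 FPKM in the −Dox libraries and at 9.24, 12.7 and 12.5 in the +Dox libraries. The groups overlapped, and library 1 was the lowest of each. The log2 fold change was 0.06 with an interval of −0.27 to 0.40 (limma adjusted p = 0.815), and its sign turned when any 1 of 3 libraries was left out (−0.02 without −Dox 1, −0.02 without +Dox 2, −0.01 without +Dox 3). Of its longest transcript, 12.2% resembled stretches of 56 other genes, at most 3.76% in any one of them. Igfbp7 (ENSMUSG00000036256, chr5:77349240-77408041, minus strand) binds IGFs weakly and is found in the vessel wall. It stood at 1.79, 2.52 and 2.69 FPKM without Dox, against 1.50, 2.58 and 1.93 with Dox. Here too the groups overlapped and library 1 was the lowest of each (log2 fold change −0.22, interval −0.86 to 0.41, adjusted p = 0.644). Its exons overlap those of Polr2b on the opposite strand over 85 bases, 7.03% of its length.

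Igfbp6 (ENSMUSG00000023046, chr15:102144362-102149511, plus strand), which prefers IGF2 to IGF1, stood at 0.601, 0.560 and 0.329 FPKM in the −Dox libraries and at 0.262, 0 and 0.153 in the +Dox libraries. All +Dox values lay below all −Dox values, but at an estimated 5.6 to 7.8 reads per −Dox library and 0 to 3.4 per +Dox library. Its fitted log2 fold change of −1.48 had an interval of −2.79 to −0.17 and depends on the pseudocount (−0.40 with a pseudocount of 1, −2.69 with 0.01). It did not pass in this fit or in any alternative (limma adjusted p = 0.187, unadjusted p = 0.0329).

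Igfbp2, Igfbp5 and Igfbp3 were listed at or near 0. Igfbp2 (ENSMUSG00000039323, chr1:72824503-72852474, plus strand) was listed at 0, 0.216 and 0.228 FPKM without Dox, against 0.202, 0 and 0.0998 with Dox. Igfbp5 (ENSMUSG00000026185, chr1:72857932-72874884, minus strand), its neighbour in the genome, was listed at 0, 0 and 0.0582 FPKM and at 0.0196, 0.0180 and 0. These values stood for an estimated 5.3 reads or fewer in any library, and no difference was detected. Igfbp3 (ENSMUSG00000020427, chr11:7206086-7213923, minus strand), the main carrier of IGFs in blood, was listed at 0 in all 6 libraries. Igfbp1, which was no member, was listed at 0 throughout as well.

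The FPKM of the 6 binding proteins summed to 12.1, 14.5 and 15.1 in the −Dox libraries and to 11.2, 15.3 and 14.7 in the +Dox libraries. The groups overlapped widely. Means were 13.9 ± 1.59 and 13.7 ± 2.20 (SD, n = 3 each; two-sided exact permutation p = 0.9, smallest possible 0.1). The difference was −0.167 FPKM and turned to 0.122 without −Dox library 2, 0.442 without −Dox library 3 and 1.09 without +Dox library 1. Igfbp4 alone made up 78.6 ± 1.52% of the sum without Dox and 83.5 ± 1.50% with it, higher in all 3 +Dox libraries (exact permutation p = 0.1). This share is a description, since Igfbp4 itself did not pass and the share also moves with the other members. Those other than Igfbp4 and Igfbp7, which rest on few reads, made up 4.07 to 5.35% without Dox and 0.117 to 4.30% with it.

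Of the ligands, Igf2 (ENSMUSG00000048583, chr7:142650766-142666816, minus strand) stood at 0.111, 0.121 and 0.467 FPKM in the −Dox libraries and at 0.207, 0.341 and 1.31 in the +Dox libraries. Library 3 was the highest of each group, and the groups overlapped. The fitted log2 fold change of 0.95 had an interval of −0.76 to 2.66 (adjusted p = 0.545). It was 0.31 without +Dox library 3 and 1.42 without −Dox library 3. The value is uncertain, because 76.2% of its longest transcript is shared with Gm49394, another gene model on the same strand that was not analysed here. Igf1 (ENSMUSG00000020053, chr10:87858265-87937042, plus strand) was listed at 0.524 FPKM in −Dox library 1 and at 0 in the other 5 libraries, where a 0 may be a failed estimate. The first value came to between 3.1 and 43 reads, depending on which of its transcripts, 510 to 7052 bases long, was counted. No fold is given for Igf1. The insulin genes Ins1 and Ins2, whose hormone shares the receptor family, were listed at 0 in all libraries.

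By level per length the order was Igf2r, Igf1r, Igfbp4 and Igfbp7, whose ranges over the 6 libraries did not overlap one another. Below Igfbp7, at a minimum of 1.50 FPKM, came Igf2, at a maximum of 1.31, then Igfbp6, Igfbp2, Igf1 and Igfbp5. Among these, Igf2 (minimum 0.111 FPKM) lay above Igfbp5 (maximum 0.0582). All other pairs of them had ranges that overlapped, so that their order cannot be told. Igfbp3, listed at 0 throughout, was given no place in the order.

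Igf2r shares its locus with Airn (ENSMUSG00000078247, chr17:12741311-12860136, plus strand), the long antisense RNA that starts inside it. Airn stood at 14.0, 16.8 and 17.1 FPKM without Dox, against 10.7, 10.8 and 11.3 with Dox. Every +Dox library lay below every −Dox library. Airn fell by 0.54 on the log2 scale (SE 0.0934, limma adjusted p = 0.0104), and it passed in all 14 alternatives. The ratio of Airn to Igf2r was 0.209 ± 0.0261 and 0.187 ± 0.00838 (SD, n = 3 each; exact permutation p = 0.4). The genes overlap over 28354 bases but their exons over 0. Of the exon bases of Airn, 114 of 3597 lie inside the Igf2r gene, in an intron. The library kit keeps the strand, but whether strand was used in counting is not given in the sources used here. Without it, intron reads of Igf2r on those 114 bases could not be told from Airn. The neighbours Slc22a2 and Slc22a3, organic cation transporter genes imprinted in the placenta, were listed at 0. H19, the imprinted neighbour of Igf2, was listed at 0 too.

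**Figure D3:**
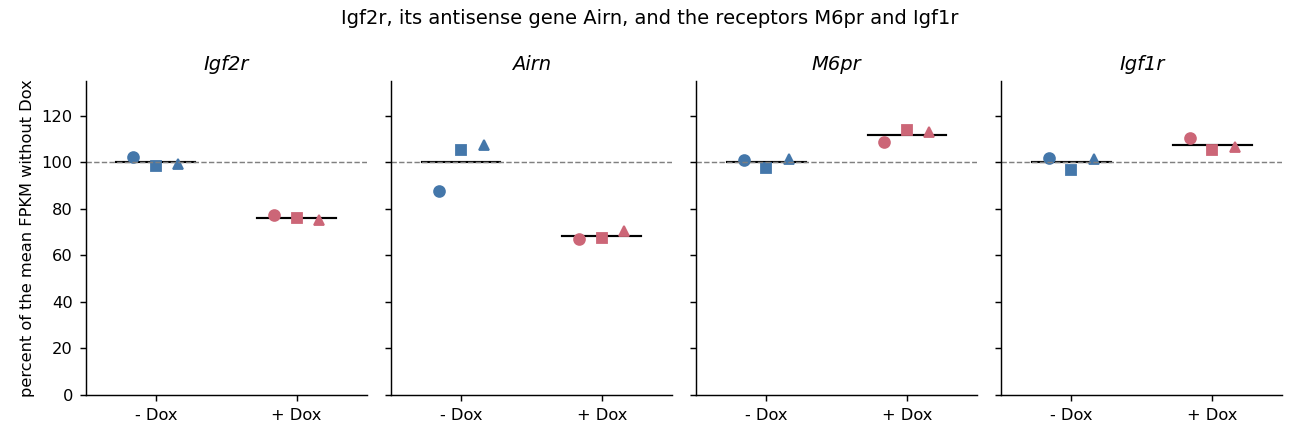
FPKM of Igf2r, Airn, M6pr and Igf1r as percent of the −Dox mean of each gene (vertical axis from 0), with 1 point per library, a line at each group mean and a dashed line at 100. Igf2r and Airn lie below the dashed line in all 3 +Dox libraries, and M6pr and Igf1r above it.

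The other mannose 6-phosphate receptor, M6pr, which carries lysosomal enzymes but does not bind IGF2, moved the opposite way. It stood at 107, 104 and 107 FPKM without Dox, against 115, 121 and 120 with Dox. Its log2 fold change was 0.16 (SE 0.0357, adjusted p = 0.0255), but 7 of the 14 alternatives, among them the omission of any library but +Dox 1, did not call it (adjusted p 0.0556 to 0.0928), and 28.2% of its longest transcript is shared with the pseudogene M6pr-ps. The ratio of Igf2r to M6pr, computed after the values were seen, was 0.723 ± 0.0119 without Dox and 0.493 ± 0.0184 with it (SD, n = 3 each). Its exact permutation p of 0.1 was fixed beforehand, because every +Dox library lay below every −Dox library for Igf2r and above for M6pr. None of the 6 other genes of this pathway passed: Gnptab, Gnptg and Nagpa, which add the mannose 6-phosphate tag, and the sorting adaptors Gga1, Gga2 and Gga3.

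Around the 10 members, 64 other genes of the pathway and of its imprinted neighbourhood were listed by function. Of these, 11 were listed at 0 in all libraries, 7 had a mean under 1 FPKM, and 46 were tested. With Dox 5 rose, 4 fell and 37 did not pass, so 19.6% of those tested were called beside 15.0% of all genes. Their median log2 fold change was −0.03, beside 0.00 over all genes.

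Of 7 proteases of the binding proteins and protease inhibitors, 5 were tested. Stc1, stanniocalcin 1, an inhibitor of PAPP-A, had the largest fall of the 9 called pathway genes. It stood at 20.7, 18.8 and 20.8 FPKM without Dox, against 13.6, 12.4 and 12.8 with Dox (log2 fold change −0.63, SE 0.0711, adjusted p = 0.00181). Stc2, the related inhibitor, stood at 25.4 to 27.9 and 25.4 to 27.3 FPKM (log2 fold change −0.02, adjusted p = 0.839). Pappa, the gene of PAPP-A itself, was listed at 0 in all libraries. Pappa2, a related protease, stood at 3.62 to 5.04 FPKM without Dox and 3.02 to 4.60 with it and did not pass. Htra1, a secreted serine protease that can cut binding proteins, was the most abundant gene of this list at 853, 894 and 865 FPKM without Dox and 958, 980 and 929 with Dox. It rose by 0.13 on the log2 scale (adjusted p = 0.0270), and 6 of 14 alternatives, among them the omission of −Dox 1 or 3 or +Dox 1 or 2, did not call it (adjusted p 0.0697 to 0.117).

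The insulin receptor Insr, the nearest relative of Igf1r, stood at 14.4, 13.6 and 13.4 FPKM without Dox, against 11.7, 11.6 and 13.6 with Dox. The groups overlapped through +Dox library 3, and Insr did not pass (log2 fold change −0.17, SE 0.0850, adjusted p = 0.227). Among 10 receptor adaptors tested, 1 rose and 1 fell. Shc1, which links receptors to the RAS pathway, stood at 89.8, 84.7 and 86.2 FPKM and at 74.1, 70.2 and 70.5 (log2 fold change −0.28, SE 0.0422, adjusted p = 0.00617), and 28.3% of its longest transcript is shared with AC123951.1. Grb14, an adaptor that inhibits the insulin receptor, stood at 20.3, 21.2 and 20.1 FPKM and at 23.5, 25.6 and 24.2 (log2 fold change 0.25, adjusted p = 0.0290). The substrate genes Irs1 and Irs2 did not pass, at log2 fold changes of 0.16 (adjusted p = 0.0877) and 0.30 (adjusted p = 0.204). Grb10, another inhibitory adaptor, was listed at 0 in all libraries.

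Of 17 genes of the PI3K, AKT and mTOR branch, all tested, 15 did not pass, among them Akt1 (263 to 270 FPKM without Dox and 262 to 284 with it) and Mtor. Pdpk1, the kinase that activates AKT, rose from 17.6, 17.5 and 19.1 FPKM to 23.6, 23.1 and 22.0 (log2 fold change 0.35, SE 0.0621, adjusted p = 0.0120). Of tested protein-coding genes with a 3′ UTR, 16.9% held a seed match. Among the called pathway genes Pdpk1 was the only 1 with such a match, shown here:
Pdpk1, chr17:24074232-24074254, minus strand: aattaaaaactgttaCAGTATTt
It starts at base 4787 of a 5346-base 3′ UTR. Pik3r2, a regulatory subunit of PI3K, stood at 112, 114 and 113 FPKM and at 99.7, 103 and 94.9 (log2 fold change −0.19, adjusted p = 0.0234). The 3 FOXO factors tested, Foxo1, Foxo3 and Foxo4, which AKT keeps out of the nucleus, did not pass.

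Of the IGF2 mRNA-binding proteins, which bind the Igf2 transcript among others, Igf2bp1 stood at 11.3, 10.7 and 11.1 FPKM without Dox, against 14.1, 18.6 and 14.1 with Dox. It rose by 0.48 on the log2 scale (SE 0.118, adjusted p = 0.0356), with +Dox library 2 apart from the other two. Igf2bp2 stood at 56.6 to 59.3 FPKM without Dox and 51.0 to 63.9 with it, and did not pass (adjusted p = 0.761). Igf2bp3 was under 1 FPKM in every library. Stc1, Shc1, Pdpk1 and Airn passed in all 14 alternatives. Igf2bp1 lost its call in 8 of them (adjusted p 0.0510 to 0.0979), among them the omission of any library but +Dox 2. Grb14 lost its call in 7 (0.0507 to 0.0971), among them the omission of any library. Pik3r2 lost its call in 7 (0.0557 to 0.0731), among them the omission of any library but +Dox 2.

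**Figure D4:**
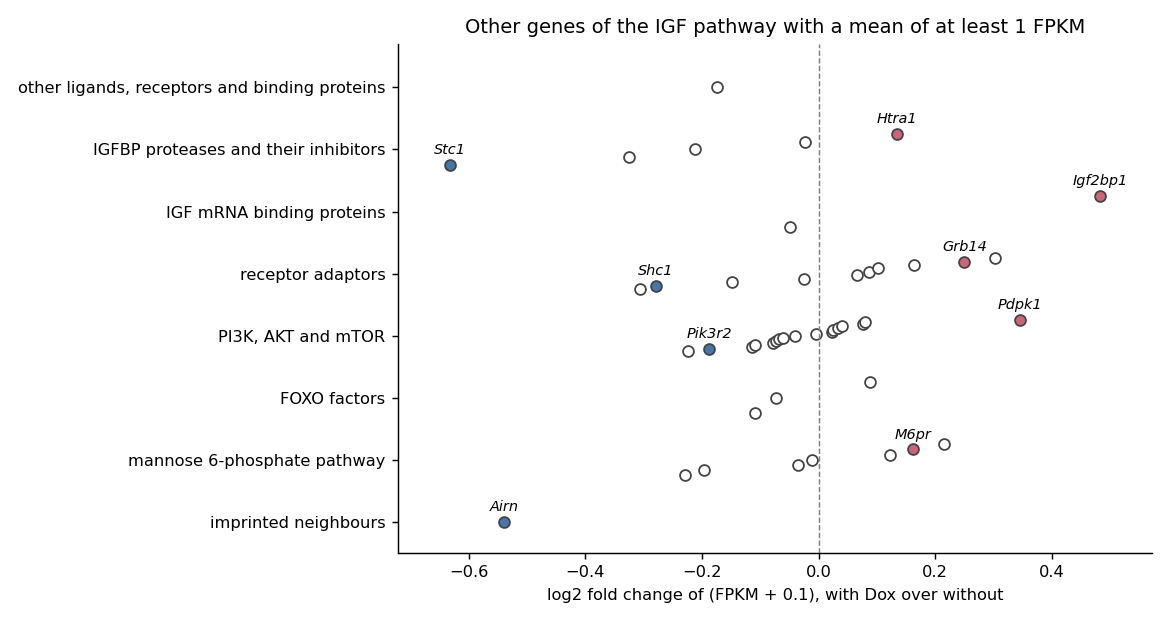
Log2 fold change of FPKM + 0.1, +Dox over −Dox (horizontal axis), of the 46 tested pathway genes outside the 10 members, by list (vertical axis, spread within a list so that points do not hide each other). The 5 genes that rose (red) and 4 that fell (blue) are named; most open points lie near 0.

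The genes whose values over the 6 libraries were most like those of Igf2r were Mxd4 (Pearson r = 0.9991 of log2 FPKM + 0.1), Papln (0.9989) and Mmp3 (0.9988). Mxd4, a repressor of the MAX network, went from a mean of 44.0 to 26.2 FPKM. Papln, a matrix protein, went from 32.3 to 20.4, and Mmp3, stromelysin 1, from 167 to 45.5. In all, 86 genes had r above 0.99 with Igf2r, and these points share 2 groups of 3 libraries.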

How the data were processed

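Single 50-bp reads from stranded mRNA libraries were mapped by the authors with gSNAP to the mouse genome (GRCm38.p6, with an FVB/NJ assembly also named) and turned with Cufflinks into FPKM, the deposited values used here. Tool versions, annotation and strand setting are not given in the sources used here. FPKM is already divided by length and depth, so depths were estimated from the steps of low values of genes with a single annotated transcript. Reads per gene were then estimated with the longest transcript as length, and where stated with the shortest. The deposited group means, fold changes, p-values and q-values are the authors' own comparison and were not used; 0 columns of per-sample values were left over.

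Of 43611 rows, 63 repeats of a gene identifier were dropped (keeping the row of highest mean), and 6 placeholder values were treated as missing. Genes whose mean reached 1 FPKM were tested by limma 3.58.1 on log2(FPKM + 0.1) (R 4.3.3, eBayes with a trend, group as the only term, Benjamini-Hochberg adjustment, threshold 0.05), and members and listed genes below that mean in the same model without the filter. The model was tested on simulated data. Sums and ratios were compared by two-sided exact permutation of the libraries. The 14 alternatives were pseudocounts of 1 and 0.01, no filter, at least 5 FPKM on average, scaling by quantiles or to equal medians, limma with no trend, the replicate number as a block, and the omission of each of 6 libraries. Locations, transcripts and 3′ UTRs were taken from the GENCODE annotation of GRCm38, miRNA sequences from RefSeq, and shared transcript sequence from BLAST 2.17.0.

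Named were the 10 members, every listed pathway gene that passed, Insr, Pappa, Stc2, M6pr, Airn, H19, Igfbp1, Zeb1, Zeb2 and Cdh1, and the 3 tested genes most like each called member; other genes named were chosen after their values were seen. The members and lists were chosen with earlier results of these data known.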

Additional observations from a re-analysis of the deposited data

How the results depend on the processing

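The call of Igf2r and the count of 1 member called were the same in all 14 alternatives; Igf1 gave no value without −Dox library 1. The count of all genes called (1935) ran from 1069 (without +Dox library 3) to 1384 when 1 library was left out and was 1495 without the trend. The 9 calls in the pathway lists came to 5 without the trend, to 4 without −Dox library 1 or 3, to 5 without −Dox library 2, +Dox library 1 or +Dox library 3, and to 6 without +Dox library 2. Replicate numbers 1 to 3 are shared by the groups, but the deviations of same-numbered libraries correlated at 0.0287, 0.0359 and −0.00759, so they were not taken as pairs, and +Dox library 3 correlated best with −Dox library 2. With the replicate number as a block, 1337 genes and 5 pathway genes (Stc1, Htra1, Shc1, Pdpk1 and Airn) were called, and the adjusted p was 0.00780 for Igf2r and 0.0721 for Cdh1. Signs of log2 fold changes that did not pass turned as follows. Igfbp5 (−0.06) was 0.093 with a pseudocount of 0.01, and ran from −0.17 to 0.17 when 1 library was left out. Over the same omissions Igfbp4 (0.06) ran from −0.017 to 0.21, Igfbp2 (−0.26) from −0.82 to 0.17, and Stc2 (−0.02) from −0.057 to 0.011. The difference in summed binding protein FPKM (−0.167, +Dox minus −Dox) ran from −1.07 to 1.09 (exact permutation p from 0.5 to 0.9 over its alternatives). The cause of these shifts was not tested. Members under 1 FPKM rest on few reads, and no difference in them was detected.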

Other observations

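Other genes with IGF in their symbol were looked up after the values of the members had been seen. Igflr1 (ENSMUSG00000036826), a receptor of the tumour necrosis factor receptor family that binds IGF-like (IGFL) proteins and not the IGFs, was at 1.56, 1.01 and 0.799 FPKM in the −Dox libraries and at 0.190, 0.00936 and 0.232 in the +Dox libraries. It was lower in all 3 +Dox libraries, with a log2 fold change of −2.43 (SE 0.525) and a limma adjusted p of 0.0459 in the model without the filter, which was 0.102 with replicate as a block, so that the call was lost. Igfl3, Igfn1 and Igf1os, the antisense gene of Igf1, were listed at 0 in all libraries.

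The ratio of Igf1r to Insr FPKM, a value chosen after the levels were seen, was 1.42 ± 0.0523 without Dox and 1.73 ± 0.166 with Dox (SD, n = 3 each). It was higher in all 3 +Dox libraries, but +Dox library 3 (1.54) lay close to −Dox library 3 (1.48). Neither gene passed the limma test (adjusted p = 0.264 for Igf1r and 0.227 for Insr). The two-sided exact permutation p of the ratio was 0.1, the smallest this design allows. Because the ratio was chosen after the levels were seen, this p is a description only.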
